A study of Mus musculus with 30 samples.

Results

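The net change of gene expression in the fetal mouse ovary from 11.5 to 18.5 days post coitum (dpc) was read from the arrays titled Embryonic Ovary 18.5 dpc and Embryonic Ovary 11.5 dpc, numbered 1 and 2 for each age. These were 12 of the series' 30 arrays, 6 at each age. They held 4 of its 10 numbered samples, each hybridised to the 3 Affymetrix arrays of a murine genome set, here called A, B and C, which carry different probe sets. All animals were mice of a BL/6-129 background with no treatment or mutant allele named, and each sample was total RNA from pooled ovaries of 1 age. The other 6 samples, at 12.5, 14.5 and 16.5 dpc, entered the same fit to estimate the spread and show the course. No label states that the pair of samples of an age were pooled from different embryos. The p-values therefore set each change only against the spread of samples within an age, and part or all of that may be technical.

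The interval runs from an early gonad to the ovary shortly before birth. Primordial germ cells, which have just colonised the gonad at its start, divide by mitosis, enter meiosis in the fetus, pair and recombine their chromosomes, and arrest late in meiotic prophase as oocytes. Supporting cells around them become pregranulosa cells, marked by the transcription factor Foxl2, while the surface epithelium, the stroma and the vessels grow. Whole ovaries were used, so a lower signal can come from fewer cells of a type or from less RNA per cell, and these cannot be told apart.

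Signals are the authors' array intensities, scaled to a mean of 125 on every array, and pairs of signals give sample 1 and then sample 2. Tests were made with limma on log2(signal + 16), and a gene was called where its p, adjusted by the Benjamini-Hochberg procedure over all 24825 probe sets tested, was under 0.05. Fold changes are on that log2(signal + 16) scale, which understates changes from low signals. Because 16 is added, a signal near 0 means only that the gene was not read above the arrays' background. Each gene is represented by its brightest tested probe set. Levels of different genes are not compared, since probe sets differ in brightness.

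The samples of an age resembled each other more than those of the other age. The correlation of log2 signals over the probe sets tested was 0.950, 0.877 and 0.860 between the samples of 11.5 dpc on arrays A, B and C. It was 0.974, 0.904 and 0.859 between those of 18.5 dpc, and from 0.856 to 0.862, 0.766 to 0.780 and 0.759 to 0.778 between ages. The median signal of the 12 arrays ran from 47.0 to 81.0. The ratio of the 3′ to the 5′ Gapdh control probe set was 0.845 and 0.829 at 11.5 dpc and 1.08 and 1.05 at 18.5 dpc. This ratio moved with age, and its part in the results was not tested. Only 2 samples an age limit the precision of every value, and the spread of each probe set was estimated in 1 fit per array type.

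Between 11.5 and 18.5 dpc, 1151 genes rose and 1054 fell among the 12589 tested, or 9.14% and 8.37% of them, so 17.5% were called in either direction. Of probe sets, 1884 rose and 1705 fell, or 7.59% and 6.87% of those tested and 14.5% together. Arrays differed, with 22.3% called for A, 13.1% for B and 8.77% for C. The samples of the ages did not overlap for 7451 genes, which was 59.2% of those tested, higher at 18.5 dpc for 30.7% and lower for 28.4%. The 20 largest rises and 20 largest falls named below were picked among such genes, so for them the lack of overlap is not a separate result. For other named genes it is the common state and describes their values only. The median change over all genes was 0.02 on the log2 scale. Genes that rose did so by a median of 2.16-fold, and 686 rose at least 2-fold (5.45% of genes tested), 144 of them at least 4-fold and 38 at least 8-fold. Genes that fell did so by a median of 2.09-fold, and 584 fell at least 2-fold (4.64%), 84 at least 4-fold and 12 at least 8-fold. With 16 added, the steepest rise was that of Sycp1, a meiotic chromosome protein, and the steepest fall that of Hba-x, an embryonic globin. With 64 added, Gtsf1 rose the most, by 4.47 on the log2 scale against 3.87 for Sycp1, since the signals of Sycp1 at 11.5 dpc lie near 0.

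**Figure D1:**
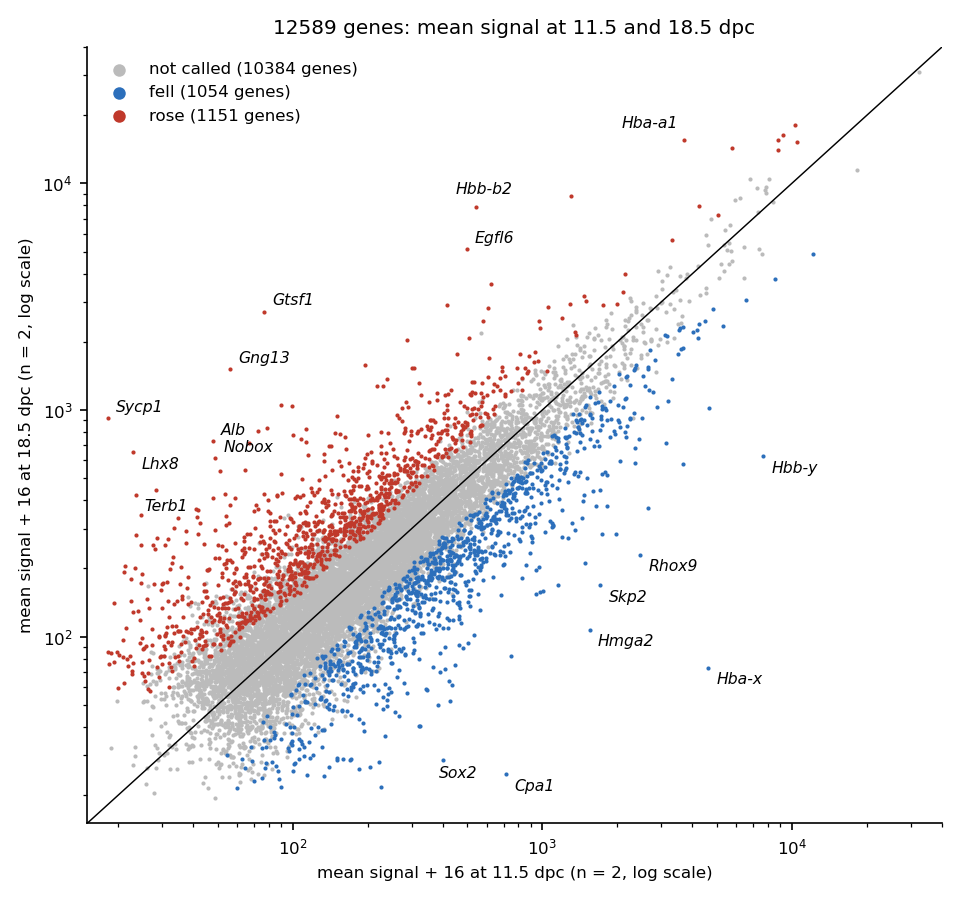
Mean signal at 11.5 dpc (horizontal) against 18.5 dpc (vertical), each the mean of 2 samples plus 16 on log axes, for 12589 genes; the line marks equal signals. Sycp1, Lhx8, Terb1, Gtsf1 and Gng13 lie far above the line, and Hba-x, Hbb-y, Hmga2, Cpa1 and Sox2 far below it, while most of the 10384 genes not called lie along it.

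Leaving out a sample of 18.5 dpc changed these counts most. Without sample 1 of that age 464 genes rose and 486 fell, and without sample 2 503 rose and 574 fell. In those fits the remaining sample of 18.5 dpc is assumed to vary like the samples of the other ages. The filter on low signal was applied again in each, so a gene that reached 50 in the 2 samples of 18.5 dpc alone was not tested. With the probe sets that passed over all 10 arrays kept, an alternative chosen after seeing the data, 494 rose and 487 fell without sample 1, and 529 rose and 578 fell without sample 2.

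Many genes that handle RNA in germ cells rose. Of 16 tested genes of the germ cell RNA and piRNA machinery, 11 rose and none fell, against 9.14% of all genes that rose, and the median change was 1.60 on the log2 scale against 0.02 for all genes. Piwi-interacting RNAs are small RNAs that silence transposons in germ cells, and some of the other members bind or remodel germ cell messenger RNA. Without either sample of 18.5 dpc, 6 of these genes passed the test, or 7 with the probe sets kept. For 3 of the 11 both signals at 11.5 dpc were under 50, the filter's signal, so a fall could hardly have been called for these.

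Gtsf1, a cofactor of the piRNA pathway, gave the steepest rise of the list, with signals of 57.8 and 63.4 at 11.5 dpc and 2468 and 2941 at 18.5 dpc. No sample of 18.5 dpc came near those of 11.5 dpc, and the change was 35.4-fold, or 5.15 ± 0.23 (SE) on the log2 scale (limma adjusted p = 6.5e-08). Its course had a step at each end, with 741 and 645 at 14.5 dpc and 733 and 619 at 16.5 dpc. Mov10l1, an RNA helicase that feeds RNA into the piRNA pathway, went from 589 and 630.3 at 11.5 dpc to 3567 and 3608 at 18.5 dpc, a rise of 5.76-fold. Piwil2, a Piwi protein that carries these RNAs, read 10.9 and 18.5 at 11.5 dpc and 288 and 187 at 18.5 dpc and rose 8.15-fold. The samples of the ages did not overlap for either gene, as for 59.2% of all genes.

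Dazl, an RNA-binding protein that licenses germ cells for sexual development, came early. Its signals were 35 and 91.5 at 11.5 dpc and 816 and 822 at 18.5 dpc, an 11.3-fold rise, and they already stood at 926 and 532 at 12.5 dpc. Another Dazl probe set stayed between 42.1 and 71.1 in these 4 samples and was not called. Ddx4, the vasa helicase of germ cells, went from 41.7 and 85.5 at 11.5 dpc to 327 and 355 at 18.5 dpc and rose 4.66-fold, also without overlap. Its other probe set, on array C, read 241 and 150 at 11.5 dpc and 143 and 126 at 18.5 dpc and was not called, so both calls rest on the brighter probe set.

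Ybx2, which binds and stores messenger RNA in germ cells, rose late. Its signals were 6.90 and 10.6 at 11.5 dpc and 239 and 238 at 18.5 dpc, 10.3-fold higher, and it was still at 24.8 and 43 at 16.5 dpc. The remaining members that rose were Tdrd7 and Tdrkh, Tudor proteins of germ granules, Cpeb1, a regulator of messenger RNA tails, Tex101 and Tex19.1, by 1.88-fold for Tex19.1 to 3.83-fold for Tdrd7. Tdrd12, Pld6, Ythdc2, Tdrd6 and 1 other member did not pass the test.

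Genes of meiotic prophase rose in the same interval. Of 24 tested, 12 rose and none fell, against 9.14% of all genes that rose, with a median change of 1.02 on the log2 scale. They encode the cohesin and axis of meiotic chromosomes, the synaptonemal complex that zips the homologues together, and the enzymes that make and repair the breaks used for recombination. Between 10 and 13 passed under the other settings tried, with either sample of any age left out among them. For 6 of the 12 that rose, both signals at 11.5 dpc were under 50, against 235 of the 1151 genes that rose in all. These passed the filter through later ages, so a fall could hardly have been called for them.

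Of the synaptonemal complex, 5 genes rose. Sycp1, its transverse filament, had signals of 3.10 and 1.30 at 11.5 dpc and 925 and 882 at 18.5 dpc, a rise of 50.6-fold (5.66 ± 0.23 on the log2 scale, SE; limma adjusted p = 4.5e-08). The means at the 5 ages were 2.20, 10.2, 322, 679 and 903, so the gene was near 0 until 12.5 dpc and rose at each later age. Syce1, of its central element, went from 36.1 and 112 at 11.5 dpc to 1045 and 1022 at 18.5 dpc and rose 12.9-fold. The samples of the ages were far apart for both genes. Tex12, Syce2 and Syce3, of the same element, rose 5.09-fold, 2.21-fold and 3.56-fold.

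Terb1, which ties telomeres to the nuclear envelope so that chromosomes can pair, read 5.30 and 9.80 at 11.5 dpc and 302 and 514 at 18.5 dpc. It rose 17.5-fold (limma adjusted p = 1.3e-05), and its other probe set rose too, from 25.6 and 39.5 to 147 and 137. Its highest signals were not at 18.5 dpc but at 14.5 dpc, 632 and 716, and 16.5 dpc, 792 and 734.

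Several meiotic genes shared that shape of a high middle and a lower end. Stag3, a cohesin of meiosis, had means of 416, 996, 5274, 3966 and 1206 over the 5 ages. Meioc, which sustains the meiotic programme, had means of 8.35, 1.20, 587, 320.2 and 103. Tex12 had means of 284, 277, 3077, 1914 and 1512. Dmc1, the recombinase of meiotic repair, had means of 15.8, 28.1, 103, 106 and 43.8 and ended only 1.87-fold above its start. All 4 had their highest mean at 14.5 or 16.5 dpc, yet both samples of 18.5 dpc still exceeded both of 11.5 dpc.

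Of the genes for recombination, Spo11, which makes the breaks, rose 3.11-fold, Msh4 3.37-fold and Ccnb1ip1, which acts at crossovers, 9.65-fold. Sycp3, of the chromosome axis, had signals of 30.5 and 20.7 at 11.5 dpc and 92.8 and 144 at 18.5 dpc and did not pass the test (change 1.68 ± 0.66 on the log2 scale, limma adjusted p = 0.11). Its samples of 18.5 dpc lay above those of 11.5 dpc but far from each other.

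The promoters of the meiotic genes with the largest rises are shown because a sequence that MYC, MAX and related factors are known to bind, CACGTG, was searched in them. The windows run from 250 bases before to 50 after the annotated start and come from RefSeq's table for build GRCm38.p6, 5′ to 3′ on the gene's strand. Capitals mark CACGTG and the related E-box CAGNTG on either strand.
Sycp1, chr3:102936051-102936350, minus strand: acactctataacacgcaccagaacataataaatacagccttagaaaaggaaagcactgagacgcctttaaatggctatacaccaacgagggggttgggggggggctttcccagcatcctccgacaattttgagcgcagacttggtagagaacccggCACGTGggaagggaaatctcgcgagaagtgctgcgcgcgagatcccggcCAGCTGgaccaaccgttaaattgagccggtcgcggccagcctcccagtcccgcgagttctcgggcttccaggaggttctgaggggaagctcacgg
Terb1, chr8:104509838-104510137, minus strand: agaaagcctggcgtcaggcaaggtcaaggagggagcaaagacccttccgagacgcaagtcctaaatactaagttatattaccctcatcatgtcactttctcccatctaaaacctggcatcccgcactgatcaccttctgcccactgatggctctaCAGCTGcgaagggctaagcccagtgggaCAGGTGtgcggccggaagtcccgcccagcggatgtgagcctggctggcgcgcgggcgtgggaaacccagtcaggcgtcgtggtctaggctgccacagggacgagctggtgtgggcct
Syce1, chr7:140787805-140788104, minus strand: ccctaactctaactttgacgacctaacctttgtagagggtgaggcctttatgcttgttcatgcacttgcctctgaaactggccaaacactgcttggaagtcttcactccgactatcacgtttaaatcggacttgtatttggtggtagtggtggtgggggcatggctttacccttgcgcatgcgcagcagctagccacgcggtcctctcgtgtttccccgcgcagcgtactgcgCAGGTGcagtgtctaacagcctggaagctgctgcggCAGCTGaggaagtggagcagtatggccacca

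The window of Sycp1 held both sequences, and those of Terb1 and Syce1 held CAGNTG alone. CACGTG was in 4 of the 13 windows of 11 meiotic genes that rose (30.8%), in 18.5% of the 27 windows of all tested members, in 9.42% of the 12847 windows of tested genes and in 7.15% of all 32851 in the table. CAGNTG was in 46.2% of the same 13 windows and in 45.9% of those of tested genes. These are matches of letters, not sites shown to be bound.

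Many oocyte genes rose, and some of those with the largest changes, Lhx8, Ccno, Nobox and Ybx2, did so between 16.5 and 18.5 dpc, whereas Dazl was early. Of 33 tested genes of oocytes and early follicles, 20 rose and none fell, against 9.14% of all genes that rose, with a median change of 1.20 on the log2 scale. Cpeb1, Ddx4, Ybx2 and Dazl, already described, are among them. For 11 of the 20 both signals at 11.5 dpc were under 50, so those that passed the filter through 18.5 dpc alone had to be higher there, and 7 of the 40 members on the arrays were too dim to be tested. Without either sample of 18.5 dpc, 7 of the list passed, or 13 with the probe sets kept.

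Lhx8, a homeobox factor required for the oocyte programme, had signals of 8.50 and 5.40 at 11.5 dpc and 589 and 679 at 18.5 dpc. It rose 28.3-fold, or 4.82 ± 0.27 (SE) on the log2 scale (limma adjusted p = 5.7e-07), and stood at 41.8 and 30.1 at 16.5 dpc. Nobox, another homeobox factor of oocytes, read 26.7 and 38.9 at 11.5 dpc and 601 and 597 at 18.5 dpc and rose 12.7-fold. Its probe set on array A also rose, from 4.6 and 8.1 to 130 and 164. Figla, a factor that switches on the zona pellucida genes, was earlier and more gradual, with means of 21.3, 28.6, 83.6, 109 and 275 and a rise of 8.34-fold. For each of these 3 factors the lower sample of 18.5 dpc was well above the higher of 11.5 dpc.

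Ccno, cyclin O, was the extreme of the late genes. Its signals were 8.20 and 16.6 at 11.5 dpc and 429 and 428 at 18.5 dpc, 15.8-fold higher, after 4.60 and 5.0 at 16.5 dpc. Nlrp5, a maternal protein stored in the egg, read 10.6 and 41.2 at 11.5 dpc and 371 and 323 at 18.5 dpc and rose 9.29-fold. Its relative Nlrp4f rose 9.15-fold. Signals of these 3 genes at 11.5 dpc were all under 50, so their folds depend on the 16 that was added.

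The other oocyte genes that rose did so by less. Gdf9, the growth factor that oocytes send to follicle cells, read 90.3 and 84.5 at 11.5 dpc and 141 and 164 at 18.5 dpc and rose 1.63-fold. That rise lost its call in 14 of the other settings tried. Zp2, of the egg coat, rose 2.21-fold, from 31.8 and 41.7 at 11.5 dpc to 106 and 95 at 18.5 dpc. Zp1 and Zp3, of the same coat, were too dim to be tested. Uchl1, Pdzk1, Tle6, Fbxo43 and Taf4b rose 4.68-fold, 4.69-fold, 2.30-fold, 3.61-fold and 1.92-fold, and the call of Taf4b was lost in 16 of the 25 other settings tried.

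Genes of primordial germ cells and pluripotency mostly fell. Of 25 tested, 11 fell and 5 rose, against 8.37% and 9.14% of all genes, and the median change was -0.68 on the log2 scale. Between 9 and 11 fell under every other setting tried.

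Sox2, a core pluripotency factor, had signals of 454 and 316 at 11.5 dpc and 14.8 and 10.5 at 18.5 dpc and fell 13.8-fold (-3.79 ± 0.20 on the log2 scale, SE; limma adjusted p = 2.9e-07). Pou5f1, its partner Oct4, read 250.3 and 193 at 11.5 dpc and 37.3 and 35.6 at 18.5 dpc and fell 4.50-fold. Another Pou5f1 probe set, on array C, read 78.4 and 50.2, then 85.8 and 51.6, and was not called. Nanog fell 2.85-fold and Utf1 4.82-fold, but the mean of Utf1's probe sets on array C did not pass. All 4 chosen probe sets had higher means at 12.5 than at 11.5 dpc and were low by 16.5 dpc, as Pou5f1 shows with means of 222, 417, 112, 26.2 and 36.5.

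The reproductive homeobox genes of the X chromosome followed the same course. Rhox9 had signals of 2398 and 2510.4 at 11.5 dpc and 191 and 237 at 18.5 dpc, a fall of 10.8-fold after means of 2454, 5175, 3569.8, 338 and 214. Rhox6 fell 5.43-fold and Rhox5 4.37-fold. Tfap2c, a factor needed to specify germ cells, fell 5.87-fold, and the developmental pluripotency genes Dppa5a, Dppa2 and Dppa4 fell 6.02-fold, 2.09-fold and 1.96-fold.

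The 5 members that rose are also known from oocytes or later germ cells, and 3 of them passed through a low point. Dppa3, also called Stella and stored in the egg, had signals of 480.3 and 322 at 11.5 dpc and 1238 and 1086 at 18.5 dpc with 33.2 and 25.3 at 16.5 dpc, and ended 2.87-fold higher. Kit, the receptor for stem cell factor, had means of 95.8, 137, 83.1, 34.8 and 305, and Tcl1 of 64.2, 112, 33, 25.8 and 138. Trim71 rose 3.92-fold and Tcfl5 4.38-fold, but the call of Trim71 was lost in 12 of the other settings tried. At 16.5 dpc Dppa3, Kit and Tcl1 all had their lowest mean of the 5 ages.

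**Figure D2:**
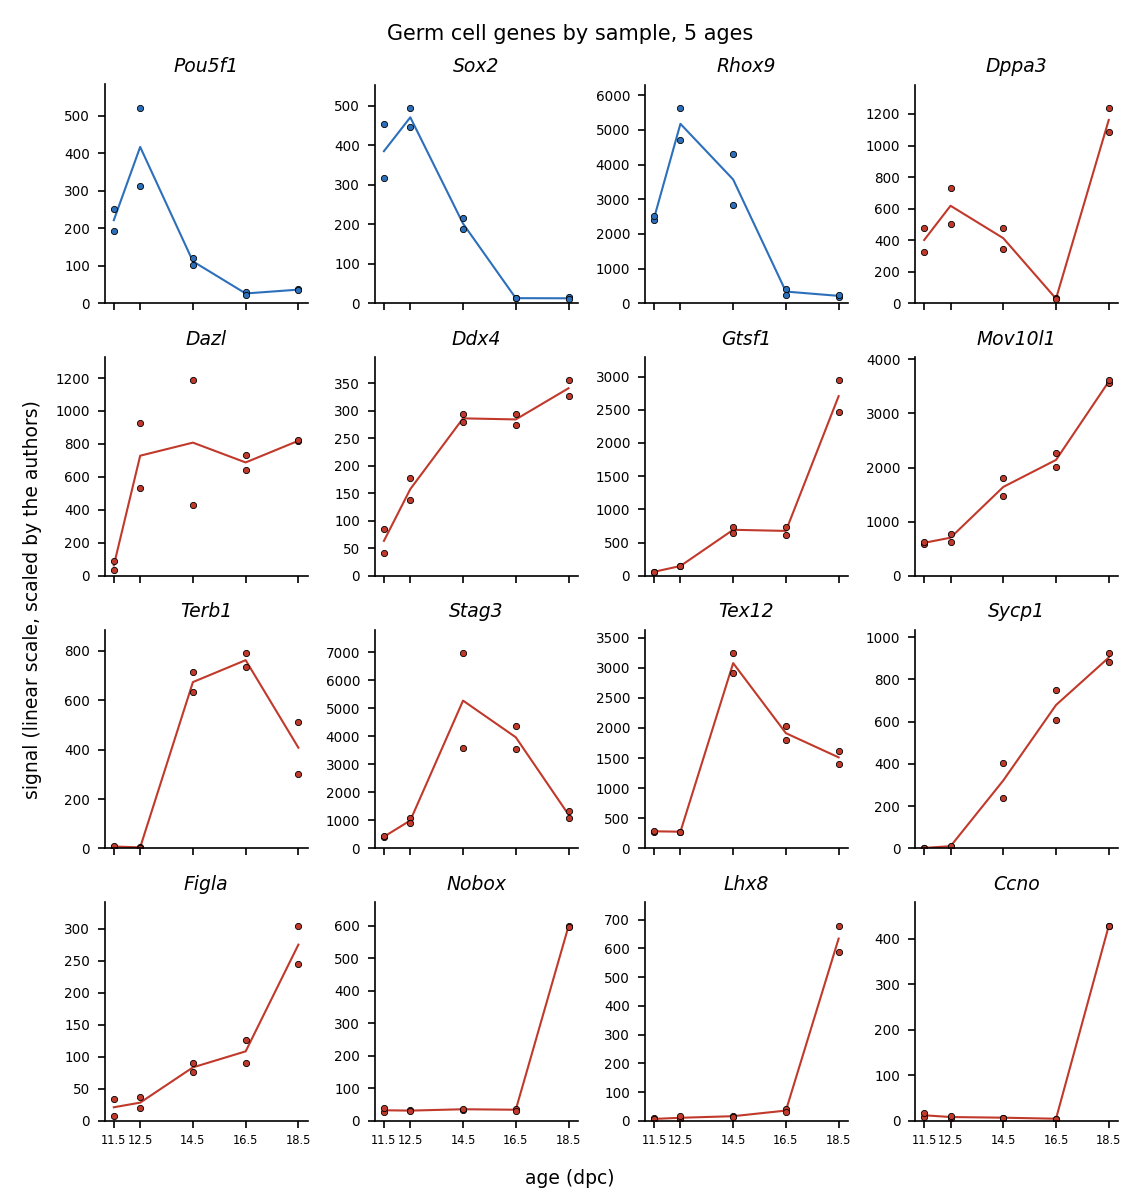
Signal of 16 germ cell genes in each sample (points, 2 an age) and their means (lines) against age in dpc; red marks genes that rose and blue genes that fell between 11.5 and 18.5 dpc, and each panel has its own linear axis from 0. Nobox, Lhx8 and Ccno stay low to 16.5 dpc, Terb1, Stag3 and Tex12 peak at 14.5 or 16.5 dpc, and Pou5f1, Sox2 and Rhox9 peak at 12.5 dpc.

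Supporting cell genes split in direction. Of 39 tested, 11 rose and 8 fell, both above the shares of all genes, and the median change was 0.03 on the log2 scale. The genes that rose include the factors and signals of the ovarian side of the gonad. Those that fell include factors of the early gonad of both sexes. The count that rose was 7 without sample 2 of 18.5 dpc, and the count that fell was 4 without sample 2 of 11.5 dpc or sample 1 of 18.5 dpc and 5 without sample 2 of 18.5 dpc.

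Gng13, a G protein gamma subunit, had the largest change of the list, with signals of 31.5 and 48.9 at 11.5 dpc and 1451 and 1545 at 18.5 dpc and a rise of 27.3-fold (4.77 ± 0.42 on the log2 scale, SE; limma adjusted p = 2.3e-05). Foxl2, which maintains the identity of granulosa cells, read 94.5 and 89.5 at 11.5 dpc and 667 and 793 at 18.5 dpc and rose 6.89-fold. Irx3, an Iroquois homeobox factor, rose 8.64-fold, from 33.7 and 63.2 at 11.5 dpc to 527 and 525 at 18.5 dpc. No sample of 18.5 dpc overlapped those of 11.5 dpc in these 3 genes, as in 59.2% of all genes. Their means at 16.5 dpc were already near or above those at 18.5 dpc.

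Some members that rose act in Wnt or activin signalling. Lgr5, a receptor for R-spondins, read 9.30 and 8.30 at 11.5 dpc and 167 and 179.8 at 18.5 dpc and rose 7.63-fold. Rspo1, the R-spondin that promotes ovarian development, rose 2.01-fold. Fst, follistatin, an inhibitor of activin, rose 4.16-fold, from 22.7 and 71 at 11.5 dpc to 235 and 216 at 18.5 dpc, with means of 46.9, 325, 160.5, 380.4 and 225 that went up and down. Its other probe set was not called. Kitl, the ligand of Kit, Runx1, Nr4a1, Pdpn and Fshr rose 1.69-fold, 1.92-fold, 2.21-fold, 2.15-fold and 1.57-fold. For Fshr the call was lost in 15 of the other settings tried.

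Among genes that fell, Lhx9, a factor needed to form the gonad, read 732 and 393 at 11.5 dpc and 182 and 142 at 18.5 dpc and fell 3.12-fold. Wt1 and Gata4, early gonadal factors, fell 1.59-fold and 1.83-fold, yet at 18.5 dpc Wt1 still read 468 and 447 and Gata4 556 and 584. Another Gata4 probe set went the other way and was not called. Nr2f2, a nuclear receptor of interstitial cells, fell 3.17-fold, Cbx2, a polycomb protein, 2.38-fold, Inha, the inhibin alpha subunit, 2.42-fold and Msx1 2.13-fold. Dmrt1, a factor of germ and Sertoli cells, fell 3.28-fold. Wnt4, which acts with Rspo1 in the ovary, had signals of 1392 and 1834 at 11.5 dpc and 1145 and 1259 at 18.5 dpc and did not pass the test.

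Genes of testis cells gave no common direction. Of 16 tested, 2 rose (Vnn1 and Hsd3b1) and 2 fell (Dmrt1 and Cyp11a1), 12.5% each way, near the 9.14% and 8.37% of all genes. Sox9, the factor that directs Sertoli cells, had signals of 823 and 892 at 11.5 dpc and 675 and 505 at 18.5 dpc and did not pass the test. Amh, Insl3 and Cyp17a1 were too dim to be tested. The Y-linked genes Eif2s3y, Kdm5d, Uty and Sry also stayed under the filter, with no signal above 45.9 in the 4 samples. Xist, the RNA of the inactive X, had signals of 74.7 and 236 at 11.5 dpc and 359 and 336 at 18.5 dpc, with sample 1 of 11.5 dpc the lowest, and rose 2.40-fold. That call was lost in 14 of the other settings tried, and the other Xist probe set was not called.

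Cyp11a1, which starts steroid synthesis, fell 2.74-fold, from 54.3 and 112 at 11.5 dpc to 20.9 and 16.5 at 18.5 dpc. Genes of cholesterol synthesis fell with it. Of 26 genes tested for making or moving sterols, 8 fell and 3 rose (30.8% and 11.5%, against 8.37% and 9.14% of all genes). Idi1, Cyp51, Msmo1, Hmgcs1, Sqle and Fdps, enzymes on the way to cholesterol, fell 3.04-fold, 2.38-fold, 1.95-fold, 1.86-fold, 1.80-fold and 1.51-fold. The mean of Msmo1's probe sets on another array went the other way and was not called. Stard4, a carrier of cholesterol within cells, fell 1.96-fold. Abca1 and Npc1, which export cholesterol from cells and from lysosomes, rose 2.54-fold and 1.91-fold. Falls numbered 2 without sample 2 of 18.5 dpc, 4 without sample 1 and 5 without sample 2 of 11.5 dpc.

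The surface of the ovary is a simple epithelium with keratins and uroplakins. Of 18 tested genes expressed by that epithelium or by mesothelium, 10 rose and 1 fell (55.6% and 5.56%, against 9.14% and 8.37% of all genes). The median change was 0.81 on the log2 scale. Krt19, a keratin of simple epithelia, had signals of 52.3 and 49.6 at 11.5 dpc and 729 and 675 at 18.5 dpc and rose 10.7-fold (3.42 ± 0.19 on the log2 scale, SE; limma adjusted p = 5.6e-07). Its other probe set rose too. Krt8 and Krt18, which pair in the same filaments, rose 3.58-fold and 3.34-fold. The samples of the ages did not overlap for any of the 3 keratins, as for 59.2% of all genes.

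Upk3b and Upk1b, uroplakins, rose 2.39-fold and 2.03-fold, and Cldn7, a tight junction protein, 2.55-fold. Aldh1a1, an enzyme that makes retinoic acid, read 674 and 510.3 at 11.5 dpc and 2828 and 2758 at 18.5 dpc and rose 4.66-fold, whereas its relative Aldh1a2 fell 2.07-fold. The adhesion genes Cdh1 and Podxl did not pass the test. The call of Aldh1a2 is lost where its probe set of standard design, with no suffix letter in its name, is used.

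Matrix genes of the stroma rose more often than they fell. Of 52 genes tested for mesenchyme and extracellular matrix, 13 rose and 5 fell (25.0% and 9.62%, against 9.14% and 8.37% of all genes). The other 34 were not called, and the median change was 0.23 on the log2 scale. Eln, elastin, had signals of 65.1 and 48.1 at 11.5 dpc and 798 and 784 at 18.5 dpc and rose 11.2-fold (3.48 ± 0.16 on the log2 scale, SE; limma adjusted p = 8.7e-08). Of other genes that serve elastic fibres, Ltbp4 rose by 4.98-fold, Lox, which crosslinks elastin and collagen, by 3.43-fold, and Fbln5 by 1.90-fold. For Eln and Ltbp4 the highest mean was at 16.5 dpc, 874 ± 43.4 and 586 ± 82 (SD, n = 2).

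Of collagens, Col1a1 read 158 and 290.5 at 11.5 dpc and 721 and 834 at 18.5 dpc and rose 3.42-fold, and Col6a1, Col6a2 and Col3a1 rose 2.32-fold, 2.59-fold and 1.66-fold. Dcn and Lum, small proteoglycans that coat collagen fibres, rose 2.55-fold and 2.90-fold. Vcan, a large proteoglycan of loose embryonic tissue, fell 4.47-fold, and the mesenchymal factors Tcf21 and Twist1 fell 3.20-fold and 2.04-fold. Tcf21 had signals of 1023 and 741 at 11.5 dpc and 256 and 266 at 18.5 dpc. Postn and Nid2 also fell, by 2.21-fold and 1.71-fold. Falls numbered 2 without either sample of 18.5 dpc (1 without sample 1 with the probe sets kept) and 3 without sample 1 of 11.5 dpc. Of 13 smooth muscle genes tested, Tagln rose 2.11-fold, Cald1 fell 2.25-fold and the other 11 did not pass the test. Rise and fall were 7.69% each, near the 9.14% and 8.37% of all genes.

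Endothelial genes fell or were not called. Of 23 tested, 8 fell (34.8%, against 8.37% of all genes) and none rose, and the median change was -0.68 on the log2 scale. Emcn, endomucin, of the surface of venous and capillary cells, had signals of 211 and 224 at 11.5 dpc and 50.2 and 41.5 at 18.5 dpc and fell 3.78-fold. Cdh5, the cadherin of endothelial junctions, read 107 and 122 at 11.5 dpc and 14.1 and 31.6 at 18.5 dpc and fell 3.45-fold. Tie1, Cd34, Cldn5 and Rasip1 fell 2.96-fold, 2.58-fold, 2.40-fold and 2.78-fold, Sox18 1.80-fold and Aplnr 1.60-fold. The ages did not overlap for Emcn or Cdh5, as for 59.2% of all genes, and most of the drop came between 12.5 and 14.5 dpc.

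The other 15 genes of the list did not pass the test. Pecam1, an adhesion molecule of all endothelium, read 61.3 and 67.2 at 11.5 dpc and 82.8 and 78.6 at 18.5 dpc and was not called. Summed over the 23 genes, signals were 3297 and 3415 at 11.5 dpc and 2367 and 2444 at 18.5 dpc. Falls numbered 4 without sample 1 of 18.5 dpc, 3 without sample 2 (4 with the probe sets kept) and 4 without sample 2 of 11.5 dpc. Cd93, also on endothelium, went from 182 and 193 at 11.5 dpc to 10.7 and 10.3 at 18.5 dpc but read 188 and 15.5 in the samples of 16.5 dpc, and its call is lost in several other settings.

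Globin genes switched from embryonic to adult forms. Red cells of the yolk sac carry embryonic globins and those of the fetal liver carry adult ones. All 3 embryonic globin genes fell and both adult globin genes rose. Hba-x, embryonic zeta globin, had signals of 4898 and 4308 at 11.5 dpc and 62.3 and 51.9 at 18.5 dpc and showed the steepest fall of any gene tested, 63.2-fold (-5.98 ± 0.20 on the log2 scale, SE; limma adjusted p = 1.8e-08). Hbb-y, an embryonic beta-type globin, read 8182 and 7160.4 at 11.5 dpc and 618 and 600.0 at 18.5 dpc and fell 12.3-fold. Hbb-bh1 fell 5.26-fold.

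The adult genes moved the other way with as little overlap. Hbb-b2, adult beta globin, read 556 and 498 at 11.5 dpc and 7773 and 8015 at 18.5 dpc and rose 14.6-fold. Hba-a1, adult alpha globin, rose 4.18-fold, from 3719.7 and 3669 at 11.5 dpc to 15255 and 15699 at 18.5 dpc. Hba-x left first, with a mean of 790.0 ± 69.2 (SD, n = 2) at 14.5 dpc, when Hbb-y was still at 7500.2 ± 299.7. Near-identical globin genes can share probes, so each symbol may stand for several copies.

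Most other red cell genes were not called. Of 21 other erythroid genes tested, 1 rose and 2 fell, near the background shares. Alas2, which starts heme synthesis in red cells, read 95.8 and 102 at 11.5 dpc and 216 and 199 at 18.5 dpc and rose 1.94-fold. Urod, of the same pathway, and Prdx2, an abundant red cell peroxiredoxin, fell 3.28-fold and 2.42-fold, but another Urod probe set was not called. Slc4a1, the anion exchanger of the red cell membrane, read 187 and 225 at 11.5 dpc and 196 and 190.3 at 18.5 dpc, and Gata1, the erythroid factor, 33.8 and 50.1 at 11.5 dpc and 83.7 and 82.1 at 18.5 dpc, and neither was called.

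Some genes of plasma proteins made by the liver rose. Of 14 on the arrays 7 could be tested, and 5 rose and none fell. All 5 had both signals at 11.5 dpc under 50, so they came into the test through later ages, and the count is a description only. Alb, albumin, had signals of 22 and 41.7 at 11.5 dpc and 724 and 706 at 18.5 dpc and rose 15.6-fold, with 148 and 195 at 14.5 dpc and 127 and 166 at 16.5 dpc. Apoa1 rose 14-fold, from 7.0 and 10.5 at 11.5 dpc to 331 and 327 at 18.5 dpc. Ahsg, Fgg and Fga rose 5.84-fold, 4.11-fold and 3.42-fold. Summed over the 7 genes, signals were 316 and 380 at 11.5 dpc and 1632 and 1624 at 18.5 dpc. This sum holds the same 5 genes, so it too is a description only.

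Afp, the albumin of the fetus, stayed under the filter with no signal above 46.7 in these 4 samples, and Apob, Apoa2 and Ttr were not tested either, with no signal above 57.8. Fgb, also not tested, read 1.7 and 6.6 at 11.5 dpc and 38.2 and 34.5 at 18.5 dpc, higher at the later age like the genes called. Hnf4a, the factor of hepatocytes, had signals of 79.8 and 112 at 11.5 dpc and 58.6 and 59.6 at 18.5 dpc and was not called. Whether liver tissue was carried into the later pools was not tested. Without sample 1 or 2 of 18.5 dpc 3 of the 5 rises passed and the other 2 fell under the filter and were not tested, and with the probe sets kept 5 and 4 passed.

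Leukocyte genes mostly stayed below or near the filter. Of 19 tested, 4 rose and 1 fell (21.1% and 5.26%, against 9.14% and 8.37% of all genes). Ptprc, Adgre1 and Lyz2 were too dim to be tested. S100a8, of neutrophils, read 92 and 46.1 at 11.5 dpc and 259.7 and 234 at 18.5 dpc and rose 3.21-fold. Its partner S100a9 read 32.6 and 10.6 at 11.5 dpc and 140.0 and 154 at 18.5 dpc and rose 4.53-fold. Cpa3, of mast cells, and Ccl6 rose 2.58-fold and 3.03-fold, and Mpeg1, of macrophages, fell 2.46-fold. Csf1r, the macrophage receptor, read 39 and 70.6 at 11.5 dpc and 74.4 and 28.2 at 18.5 dpc and was not called. Rises numbered 2 when any of the 4 samples was left out.

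Genes of complement and innate defence rose more often than they fell, 9 against 1 of 24. These are 37.5% and 4.17% of the list, beside 9.14% and 8.37% of all genes. Cd55, which protects cells from complement, read 75.3 and 35.6 at 11.5 dpc and 344 and 389 at 18.5 dpc and rose 5.57-fold. Clu, clusterin, rose 3.92-fold and Cd59a 2.65-fold. The class I genes H2-K1 and H2-D1 rose 2.49-fold and 2.51-fold, with their highest means at 16.5 dpc, 727 ± 43.8 and 428 ± 50.1 (SD, n = 2). These genes share sequence, so their probe sets may read each other. Isg15, an interferon-induced gene, rose 3.54-fold.

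Few markers of neighbouring tissue were called. Pax2 and Pax8, of the mesonephros, had no signal above 31.6 in the 4 samples, and of 11 genes tested for that tissue only Foxd1 was called, with a fall of 2.92-fold. Of 9 neuronal and glial genes only Tubb3 was called, with a fall of 1.78-fold. Yet 6 of these 9 had an unadjusted limma p under 0.05, against 33% of all genes. Their median change was -0.66 on the log2 scale, with 5 lower and 4 higher at 18.5 dpc. None of 4 adrenal genes was called by limma, where 1 had an unadjusted p under 0.05.

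**Figure D3:**
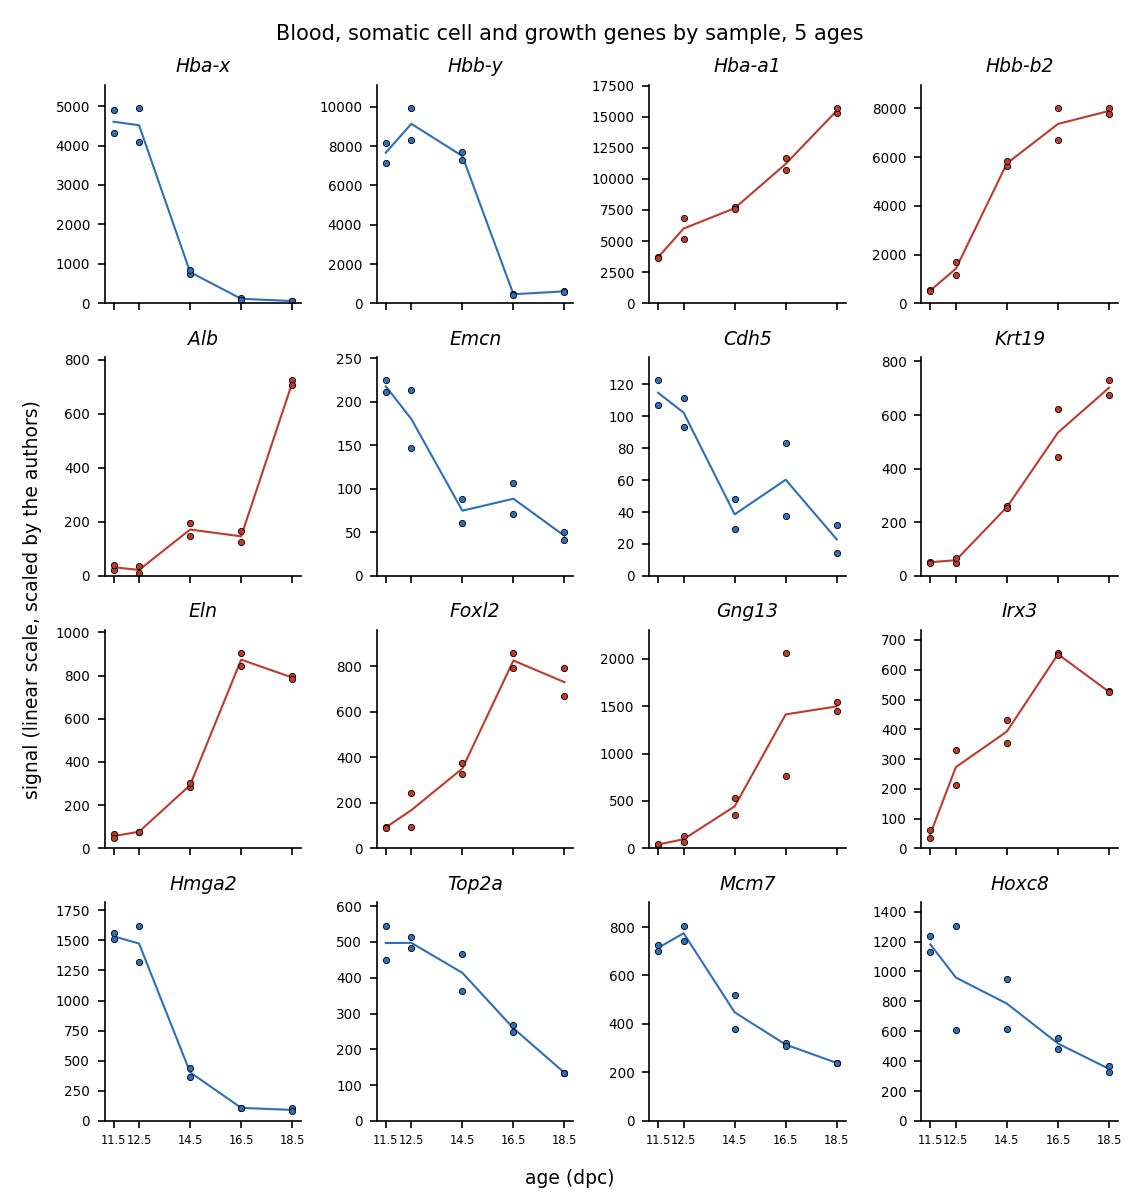
Signal of 16 genes of blood, somatic cells and growth in each sample (points, 2 an age) and their means (lines) against age in dpc, drawn as in the panels of germ cell genes, with a linear axis from 0 in each. Hba-x drops between 12.5 and 14.5 dpc and Hbb-y between 14.5 and 16.5 dpc, Alb steps up at 14.5 and again at 18.5 dpc, and Hmga2, Top2a, Mcm7 and Hoxc8 decline over the course.

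Genes of cell division fell. Of 80 tested genes of the cell cycle and DNA replication, 34 fell and 4 rose, against 8.37% and 9.14% of all genes, with a median change of -0.49 on the log2 scale. Between 22 and 35 fell under every other setting tried. Most changes were moderate, with 22 of the 34 at least 2-fold.

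Ncapd2, a condensin that compacts chromosomes, had signals of 317 and 416 at 11.5 dpc and 58.5 and 8.90 at 18.5 dpc and fell 8.80-fold (-3.14 ± 0.41 on the log2 scale, SE; limma adjusted p = 2.8e-04). Skp2, which marks the inhibitor p27 for destruction, read 2034 and 1347 at 11.5 dpc and 159 and 146 at 18.5 dpc and fell 9.90-fold, but its probe set of standard design, on array B, read 172 and 151, then 85.4 and 75.5, and missed the threshold. Top2a, which untangles DNA, read 546 and 448 at 11.5 dpc and 135 and 134 at 18.5 dpc and fell 3.39-fold. The ages did not overlap in any of these 3, as in 59.2% of all genes.

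The genes that fell act at different steps of the cycle. For nucleotides and replication, Rrm1 and Rrm2, of ribonucleotide reductase, fell 3.43-fold and 3.34-fold. Mcm7, Mcm4, Mcm3 and Mcm2, of the helicase that opens DNA, fell 2.86-fold, 2.81-fold, 2.08-fold and 1.83-fold, and Pcna, the clamp of DNA polymerase, 1.96-fold. For mitosis, Aurkb and Aurka, kinases of the spindle, fell 4.82-fold and 2.80-fold, Bub1b, of the spindle checkpoint, 2.63-fold, and Mki67, the proliferation antigen Ki-67, 2.12-fold. Aurkb's other probe set was lower too but was not called. Mcm7 had means of 714, 774, 448, 315 and 239 and shows the usual shape, level to 12.5 dpc and lower from 14.5 dpc on.

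Cdk4, the kinase of early G1, fell 2.05-fold, whereas Ccnd2, its cyclin partner, had signals of 23.5 and 116 at 11.5 dpc and 168 and 160.0 at 18.5 dpc and did not pass the test. Ccnd2 passed as a rise with the sample number as a block in the fit (limma adjusted p = 0.034). It also passed with the adjustment made within each array type (limma adjusted p = 0.044). The 4 members that rose were Smc4, Prc1, Ncapg and Bub1, by 1.70-fold to 1.83-fold, and at most 2 genes of the list rose when a sample of 18.5 dpc or sample 2 of 11.5 dpc was left out. Cdk1, the kinase of mitosis, was not called.

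Of 13 growth inhibitors and growth-arrest genes tested, 3 rose and 1 fell (23.1% and 7.69%, against 9.14% and 8.37% of all genes). Gadd45g, which acts in stress and in gonadal sex determination, had signals of 424 and 442 at 11.5 dpc and 51.5 and 66.5 at 18.5 dpc and fell 6.02-fold. Rb1, the retinoblastoma protein, rose 2.42-fold, from 16.4 and 18.9 at 11.5 dpc to 68.7 and 62.3 at 18.5 dpc. Trp63, the p53 relative that guards oocytes, and Gadd45b rose 1.93-fold and 2.0-fold. None of these 3 rises passed without either sample of 18.5 dpc, or 1 without sample 2 with the probe sets kept. Cdkn1b, the inhibitor p27, had signals of 24.4 and 37.1 at 11.5 dpc and 73.8 and 45.1 at 18.5 dpc and did not pass.

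Windows around the starts of Skp2, Ncapd2 and Rrm1 are shown, the cell cycle genes with the largest falls that matched the promoter table (Aurkb did not), since 2 elements of cell cycle promoters, the CCAAT box (CCAAT) and the cell cycle homology region (TTTGAA), were searched on both strands. The windows come from the same table. Skp2 has a pair of annotated starts and both are given. Capitals mark either element on either strand.
Skp2, chr15:9155376-9155675, minus strand: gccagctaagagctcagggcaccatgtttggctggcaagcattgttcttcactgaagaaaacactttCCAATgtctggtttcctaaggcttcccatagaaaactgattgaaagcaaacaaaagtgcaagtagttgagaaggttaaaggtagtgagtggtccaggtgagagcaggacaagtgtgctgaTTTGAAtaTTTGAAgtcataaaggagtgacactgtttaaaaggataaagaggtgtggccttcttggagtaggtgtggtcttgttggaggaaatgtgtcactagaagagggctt
Skp2, chr15:9140405-9140704, minus strand: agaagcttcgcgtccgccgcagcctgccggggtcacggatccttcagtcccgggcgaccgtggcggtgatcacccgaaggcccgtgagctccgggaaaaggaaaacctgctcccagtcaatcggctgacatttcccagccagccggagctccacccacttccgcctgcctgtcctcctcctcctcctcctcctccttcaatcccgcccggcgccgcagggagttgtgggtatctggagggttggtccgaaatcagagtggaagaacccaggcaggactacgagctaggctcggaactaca
Ncapd2, chr6:125191537-125191836, minus strand: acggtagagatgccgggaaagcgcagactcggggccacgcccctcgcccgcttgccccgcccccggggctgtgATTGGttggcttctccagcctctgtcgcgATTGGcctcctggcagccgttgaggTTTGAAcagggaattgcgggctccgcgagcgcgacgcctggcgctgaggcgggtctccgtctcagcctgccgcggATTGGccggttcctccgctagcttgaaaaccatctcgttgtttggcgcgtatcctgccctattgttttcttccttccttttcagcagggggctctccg
Rrm1, chr7:102441445-102441744, plus strand: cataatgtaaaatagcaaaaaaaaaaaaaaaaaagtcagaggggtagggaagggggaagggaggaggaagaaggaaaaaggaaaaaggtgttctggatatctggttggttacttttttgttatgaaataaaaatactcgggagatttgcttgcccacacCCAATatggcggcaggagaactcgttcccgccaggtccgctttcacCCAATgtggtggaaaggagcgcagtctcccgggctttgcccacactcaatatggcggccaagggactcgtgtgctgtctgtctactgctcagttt

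Ncapd2 held 3 CCAAT boxes and 1 TTTGAA, the upstream window of Skp2 1 and 2, and Rrm1 2 CCAAT boxes. The other window of Skp2 held neither. CCAAT was in 77.4% of the 31 windows of 29 cell cycle genes that fell, in 67.1% of the 73 windows of all tested members, in 37.6% of those of tested genes and in 37.4% of all. TTTGAA was in 51.6%, 39.7%, 12.3% and 17.9% of these. TTGGCGC, an E2F element, was in 22.6%, 20.6%, 4.01% and 2.45%. The shares were thus high in the list as a whole and not only in the members that fell.

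Of 10 tested genes of embryonic timing under the let-7 microRNA, 2 fell, Trim71 rose as given above and 7 were not called, with a median change of -0.01 on the log2 scale. The falls and the rise were 20% and 10% of the list, against 8.37% and 9.14% of all genes. Hmga2, a chromatin protein of fast-growing embryonic tissue and a target of let-7, had signals of 1559.6 and 1508 at 11.5 dpc and 104 and 78.9 at 18.5 dpc and fell 14.5-fold (-3.86 ± 0.17 on the log2 scale, SE; limma adjusted p = 7.3e-08). Igf2bp1, an RNA-binding protein of the same timing pathway, fell 4.07-fold. Lin28a, which blocks let-7, had signals of 37.8 and 60.5 at 11.5 dpc and 29.3 and 38.4 at 18.5 dpc and was not called. The samples of Hmga2 held one level to 12.5 dpc and were low by 16.5 dpc.

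Of 21 imprinted growth genes tested, 9 fell and 2 rose (42.9% and 9.52%, against 8.37% and 9.14% of all genes). Plagl1, a zinc finger factor that sits over this network, read 2372 and 3877 at 11.5 dpc and 629 and 764 at 18.5 dpc and fell 4.30-fold. Peg10 fell 3.70-fold, Nnat 2.69-fold, Mest 2.56-fold, Asb4 2.31-fold and Peg3 1.58-fold. Meg3, a maternally expressed RNA, and Dcn rose 2.17-fold and 2.55-fold, though the mean of Meg3's probe sets on array C was slightly lower at 18.5 dpc. Igf2, the growth factor at the centre of the network, had signals of 3887 and 5156 at 11.5 dpc and 3564 and 3329 at 18.5 dpc and did not pass.

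Of 26 tested genes of the Hox, Meis and Pbx families and their homeobox partners, which give cells their position along the body, 7 fell and none rose. The 7 are 26.9% of the list, against 8.37% of all genes. Hoxa9 read 179 and 88.8 at 11.5 dpc and 4.50 and 22 at 18.5 dpc and fell 5.12-fold, and Hoxc8 read 1127 and 1235 at 11.5 dpc and 330.4 and 365 at 18.5 dpc and fell 3.29-fold. Hoxd10, Hoxd9, Hoxb4 and Hoxa4 fell 2.91-fold, 2.89-fold, 2.86-fold and 1.53-fold, and Six5 2.21-fold. Other probe sets of Hoxa9 and Hoxc8 were lower without being called. The number was 4 without either sample of 18.5 dpc or in a fit of the end ages alone, and 11 after quantile normalization.

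Signalling genes are given by list counts and single members, and no pathway was tested as a whole. Of 43 genes of TGF-beta, activin and BMP signalling, 6 rose and 5 fell. These are 13.95% and 11.63% of the list, both somewhat above the 9.14% and 8.37% of all genes. Id1, a target of BMP signals, had signals of 263 and 280.0 at 11.5 dpc and 2002 and 2022 at 18.5 dpc and rose 7.06-fold (2.82 ± 0.16 on the log2 scale, SE; limma adjusted p = 5.5e-07). Nbl1, a BMP antagonist, rose 2.84-fold, Id4 2.17-fold and the ligand Tgfb3 1.75-fold. The receptors Acvr1 and Acvr1b fell 2.33-fold and 1.76-fold, and Smad6 and Smad5, of the Smad family, 1.80-fold and 1.56-fold. Other probe sets of Acvr1b and Smad5 went the other way and were not called. Without sample 1 of 18.5 dpc 3 of the list rose and 2 fell.

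In the Wnt pathway 6 of 36 rose and 2 fell (16.7% and 5.56%, against 9.14% and 8.37% of all genes). The ligands Wnt6 and Wnt10b rose 2.10-fold and 2.54-fold, the receptor Fzd6 2.20-fold and Nkd2, an inhibitor inside the cell, 3.75-fold. The receptor Fzd7 and the repressor Tcf7l1 fell 3.50-fold and 2.49-fold, and another Fzd7 probe set went the other way without being called. Rises numbered 3 without sample 1 of 18.5 dpc and 2 without sample 2.

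In the Notch pathway 2 of 19 rose and 1 fell (10.5% and 5.26%, near the 9.14% and 8.37% of all genes). Jag2, a Notch ligand, had signals of 4.30 and 8.70 at 11.5 dpc and 159 and 169 at 18.5 dpc and rose 8.02-fold (limma adjusted p = 1.2e-04), after 8.10 and 6.60 at 16.5 dpc. Hes1, a target of Notch, read 145 and 171 at 11.5 dpc and 400.3 and 451 at 18.5 dpc and rose 2.54-fold, while Hey1, another, fell 2.63-fold. Both samples of 18.5 dpc stood apart from all 8 earlier samples for Jag2 and Hes1.

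Retinoic acid is the signal linked to entry into meiosis. Of 13 genes tested for it, 4 fell, namely Crabp2 by 4.12-fold, Crabp1, Aldh1a2 and Rara, and 3 rose, namely Aldh1a1, Rbp4 by 4.35-fold and Rdh10 by 2.08-fold. Falls and rises were 30.8% and 23.1%, against 8.37% and 9.14% of all genes. Another Rara probe set gave the other sign and was not called. Stra8, which retinoic acid induces before meiosis, had means of 2.70, 5.65, 598, 72.8 and 16.4 over the 5 ages and was not called between the end ages, though it passed with 4 in place of 16 added (1.53 on the log2 scale, limma adjusted p = 0.048). Without either sample of 18.5 dpc 2 genes of the pathway fell. Stra8's highest mean was at 14.5 dpc.

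Of 13 genes of the insulin-like growth factor system, 3 rose and 1 fell (23.1% and 7.69%, against 9.14% and 8.37% of all genes). The binding proteins Igfbp2, Igfbp6 and Igfbp7 rose 5.14-fold, 4.09-fold and 2.86-fold. For 2 of these 3 both signals at 11.5 dpc were under 50, the filter's signal. Igfbp2 read 214 and 367 at 11.5 dpc and 1495 and 1527 at 18.5 dpc. Igf1r, the receptor of the system, fell 2.30-fold on its brightest probe set, whereas another of its 4 tested probe sets rose. Of 26 guidance genes, 2 rose and 5 fell (7.69% and 19.2%, against 9.14% and 8.37% of all genes). Efna1, an ephrin ligand, read 44.8 and 25.6 at 11.5 dpc and 525 and 525 at 18.5 dpc and rose 10.8-fold. Plxna1 rose 1.97-fold, and Efna5, Slit3, Plxnd1, Epha7 and Unc5c fell 4.53-fold, 3.12-fold, 2.89-fold, 2.59-fold and 2.50-fold.

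Of 19 glycolysis genes 5 fell, 26.3% against 8.37% of all genes, with Ldhb at 2.33-fold, Pkm, Ldha, Pgam1 and Pgk1 between 1.51-fold and 1.75-fold, and Bpgm rose 2.98-fold. Bpgm makes the regulator of hemoglobin in red cells. Of 49 respiratory chain genes 3 rose and 5 fell (6.12% and 10.2%, near the shares of all genes), but 10 rose after quantile normalization and none rose with no intensity trend. Of 31 ribosomal protein genes 4 rose and 1 fell (12.9% and 3.23%, beside 9.14% and 8.37% of all genes). Without either sample of 18.5 dpc 2 glycolysis genes and 1 respiratory chain gene fell (2 of the latter without sample 2 with the probe sets kept), no respiratory chain gene rose and 2 ribosomal protein genes rose.

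Of 23 apoptosis genes 3 fell, Bbc3 by 5.17-fold, Cycs by 3.38-fold and Casp2 by 1.85-fold, and none rose. The 3 are 13.0% of the list, against 8.37% of all genes. Of 33 polycomb and histone-modifying genes, Ezh2, the polycomb methyltransferase of dividing cells, fell 2.44-fold, Cbx2 and Kat2a fell 2.38-fold and 2.54-fold, and Ezh1, Phc1, Pcgf2 and Hdac6 rose 1.76-fold, 1.63-fold, 1.81-fold and 1.66-fold. Rises and falls were 12.1% and 9.09% of that list, near the 9.14% and 8.37% of all genes. None of the 13 genes tested for DNA methylation and demethylation was called by limma, and 5 had an unadjusted p under 0.05. Dnmt3b had a change of -1.04 ± 0.36 (SE) and Tet1 of -1.02 ± 0.35 on the log2 scale, with limma adjusted p = 0.071 and 0.069.

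**Figure D4:**
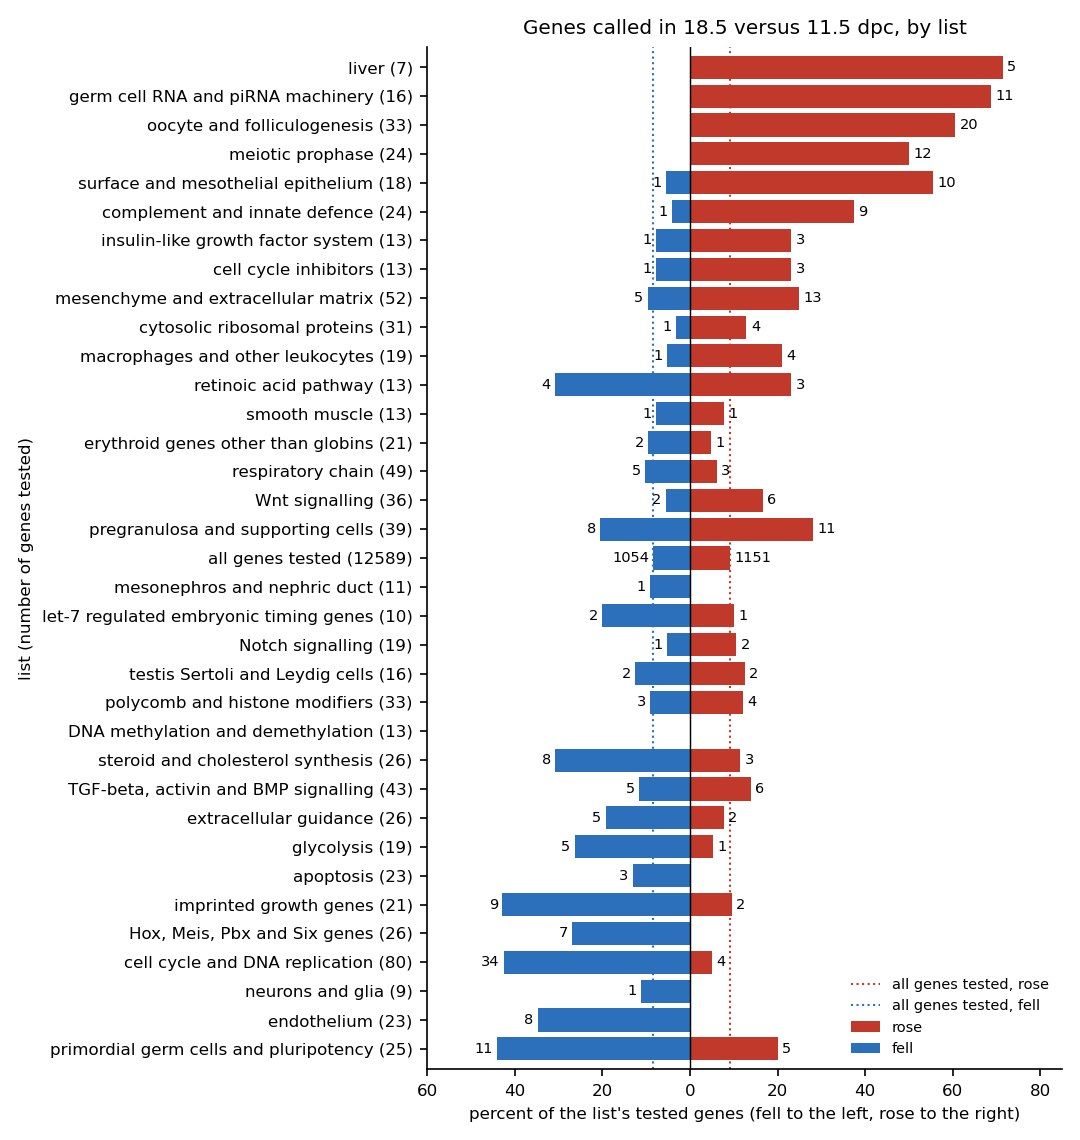
Percent of each list's tested genes that rose (right, red) and fell (left, blue) between 11.5 and 18.5 dpc, with the number of genes at each bar, the number tested in brackets and dotted lines at the shares of all 12589 genes; lists of under 5 tested genes (globins, adrenal, X and Y) are not drawn. Of the lists drawn, liver, germ cell RNA, oocyte, meiotic and surface epithelium lists reach furthest right, and primordial germ cell, imprinted and cell cycle lists furthest left.

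Among the 20 genes with the largest rises and the 20 with the largest falls, several belong to none of the lists. Tktl1, a relative of transketolase on the X chromosome, had signals of 4.60 and 10.5 at 11.5 dpc and 279 and 253 at 18.5 dpc and rose 12.1-fold. Egfl6, a secreted matrix protein, read 398 and 566 at 11.5 dpc and 4782 and 5423 at 18.5 dpc and rose 10.4-fold. Cfap54, of the cilium axoneme, rose 9.70-fold, from 3.60 and 6.80 at 11.5 dpc to 209.9 and 170.2 at 18.5 dpc, and Nat9, an acetyltransferase, rose 10.6-fold. All 4 had both samples of 18.5 dpc above both of 11.5 dpc, as the rule that named them requires.

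Genes of gut and pancreas stood among the falls. Cpa1, a carboxypeptidase of pancreatic juice, had signals of 504 and 902 at 11.5 dpc and 12.2 and 5.20 at 18.5 dpc and fell 28.2-fold. Mgam, an intestinal enzyme that digests starch, read 222 and 199 at 11.5 dpc and 3.30 and 8.10 at 18.5 dpc and fell 10.5-fold. Cpa1 was high in the samples of 11.5 and 12.5 dpc, and Mgam in those of 11.5 dpc alone.

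Cdh10, a cadherin, Sphkap, an anchor of protein kinase A, and Kcne3, a potassium channel subunit, were also highest at 11.5 dpc and low from 14.5 dpc on. Cdh10 went from 317 and 289 at 11.5 dpc to 35.9 and 13 at 18.5 dpc. Sphkap went from 350.1 and 470.5 at 11.5 dpc to 28.7 and 43.7 at 18.5 dpc, and Kcne3 from 400.2 and 214 at 11.5 dpc to 20.2 and 28.5 at 18.5 dpc. Stil, of centriole duplication, fell 7.79-fold, but its other probe set did not pass. Snx31, Gulp1, Adam8, Septin11, Olfml3 and Cpne8 fell 7.10-fold, 7.09-fold, 7.03-fold, 6.89-fold, 6.85-fold and 9.43-fold.

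The time at which each gene had covered its net change was read from the means of the 3 middle ages. These means do not enter the net change, though their samples enter its estimate of the spread, the filter and the choice of probe set. Among the 1151 genes that rose, the mean first passed the midpoint at 12.5 dpc for 239, at 14.5 dpc for 402, at 16.5 dpc for 318 and at 18.5 dpc for 192. Among the 1054 that fell, the numbers were 192, 288, 375 and 199. The most common age was thus 14.5 dpc for rises, 34.9% of them, and 16.5 dpc for falls, 35.6%. The 5 means moved one way throughout for 271 of the genes that rose and 280 of those that fell. No test was made of these classes.

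**Figure D5:**
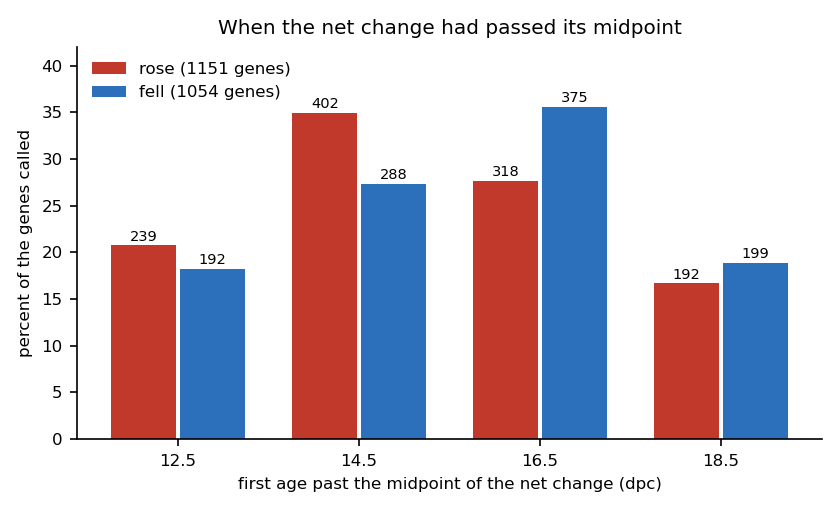
Percent of the genes that rose (red, 1151 genes) and fell (blue, 1054 genes) by the first age in dpc at which the mean log2 signal had passed the midpoint between 11.5 and 18.5 dpc, with the number of genes over each bar. Rises peak at 14.5 dpc with 402 genes and falls at 16.5 dpc with 375.

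A separate contrast asked whether 14.5 dpc lay off the midpoint of the end ages, as 2 times its mean less the means of 11.5 and 18.5 dpc on the log2 scale. It was called for 146 genes, 1.16% of those tested, 110 above (0.874%) and 36 below (0.286%). Among the 40 genes with the largest net changes, those called furthest above were Terb1 with 5.62, Syce1 with 4.70, Rhox9 with 4.45, Hbb-y with 3.56 and Hbb-b2 with 2.95 (limma adjusted p from 4.6e-05 for Hbb-y to 0.002 for Syce1). Terb1, Syce1 and Hbb-b2 had risen by 14.5 dpc, and Rhox9 and Hbb-y had not yet fallen. Dazl lay at 3.12 and Cpa1 at -3.45 without being called (limma adjusted p = 0.079 and 0.088).

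Those called furthest below were Ccno with -4.55, Sphkap with -3.91, Lhx8 with -3.82, Nobox with -3.47 and Ybx2 with -2.86 (limma adjusted p from 0.0018 for Lhx8 to 0.044 for Nobox). Sphkap had already fallen, and the 4 germ cell genes had not yet risen. Leaving out a sample changed the number of genes called. It was 57 and 58 without sample 1 or 2 of 14.5 dpc, 76 and 74 without sample 1 or 2 of 18.5 dpc, and 254 without sample 1 of 11.5 dpc.

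Some genes moved in between and came back. The F test over the 5 ages called 2236 genes, 17.8% of those tested, and 305 of them had a net change within 0.5 of 0 on the log2 scale that was not called. A middle age was the extreme on the high side for 173 of these and on the low side for 132. Ugt8a, an enzyme of galactolipid synthesis, had means of 25.2, 32.5, 467, 258 and 33.5 over the 5 ages. H2-K2, a class I histocompatibility gene, had means of 16.3, 16, 179.9, 322 and 21. Esco2, which acetylates cohesin so that it holds sister chromatids, had means of 296, 477, 1419.5, 638 and 389. These 3 were highest at 14.5 or 16.5 dpc and near their start at 18.5 dpc.

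Rab27b, a GTPase of secretory vesicles, had means of 29.2, 60.4, 135, 219.5 and 27.3, and Porcn, which lipidates Wnt proteins, of 22.4, 220.2, 102, 3.90 and 41.3. Mrs2, a mitochondrial magnesium channel, was lowest at 16.5 dpc with means of 114, 52.5, 76.2, 8.60 and 82.8. The unnamed transcripts 1700129C05Rik and 4933424G06Rik had means of 43.4, 549.6, 97.7, 154 and 37.5 and 111, 20, 77.5, 177 and 125. For Porcn, 1700129C05Rik and 4933424G06Rik the samples of 1 age differed widely, for example 23.1 and 172 at 14.5 dpc for 1700129C05Rik.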

How the data were processed

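RNA of pooled ovaries from 5 ages, 2 numbered samples an age, was read on the 3 array types, 10 arrays each, and the deposited files hold 1 signal per probe set. These intensity values were scaled by the authors to a mean of 125, per the labels, and the sources used here do not name the software that made them.

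Of 36899 probe sets, 198 controls were left out. Probe sets that reached a signal of 50 on 2 or more of their 10 arrays were tested (24825 in all), and log2(signal + 16) was fitted over the 5 ages with limma 3.58.1 in R 4.3.3 (lmFit, eBayes with an intensity trend, 5 residual degrees of freedom), 1 fit per array type. The Benjamini-Hochberg adjustment ran over the 3 types together. Gene names came from the platform annotation: 29131 probe sets had 1 symbol, 724 several and 6846 none, and 12589 genes were tested, each by its probe set of highest mean log2 signal. For 2299 of them that probe set's name has a suffix letter, so it is not of standard design. Only some of these letters mark probes that can match several transcripts. RefSeq's GRCm38.p6 promoter table matched 10087 of the tested genes.

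Named were the 20 largest rises and falls with no overlap between samples and a mean of at least 100 at the higher age, list members led by the largest changes, 5 genes each way by the contrast of 14.5 dpc, and the 8 genes that moved furthest and came back. The members and lists were chosen with earlier results of these data known. On simulated data for 18.5 against 11.5 dpc with 24825 probe sets, the test recovered 67 of 200 changed probe sets at 2-fold, 162 of 200 at 4-fold and 179 of 200 at 8-fold, with 19 false among 427 calls. The simulated noise came from the fit's own model, and fewer probe sets were changed than were called in the data. These rates therefore need not hold for the real comparison. The alternatives tried concerned the added value, the filter, the normalization, the ages fitted, the replicate block, the trend, the adjustment, the choice of probe set and each left-out sample. The main fit had no block for the sample number, since the labels do not say that equal numbers mark a shared batch. Differences between samples 1 and 2 correlated between ages from -0.16 to 0.22, with 1 of 30 pairs of ages over 0.1. Such values cannot show whether a batch was shared.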

Additional observations from a re-analysis of the deposited data

How the results depend on the processing

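Genes called between 11.5 and 18.5 dpc numbered 2205 as reported and from 1497 to 2388 under the settings that kept all samples, with 46.7% to 56.2% of calls upward over all settings. Fitting the 2 end ages alone called 2348 probe sets in place of 3589, and dropping the intensity trend called 1413 genes in the F test over 5 ages in place of 2236. With the replicate block, 3415 probe sets and 2106 genes were called, 132 for the departure of 14.5 dpc and 2070 in the F test. Leaving out 1 sample gave 1511 to 3483 probe sets, 950 to 2159 genes, 57 to 254 genes for the departure and 1151 to 2763 genes in the F test. The low ends for probe sets, genes and the F test came without sample 1 of 18.5 dpc; without sample 2 of that age 1691 probe sets, 1077 genes and 1238 genes in the F test were called. With the probe sets that pass over all 10 arrays kept, an alternative chosen after seeing the data, the numbers without sample 1 and sample 2 of 18.5 dpc were 1562 and 1743 probe sets, 981 and 1107 genes, 73 and 74 for the departure and 1146 and 1240 in the F test, and 255 genes were called for the departure without sample 1 of 11.5 dpc.

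Of the 247 genes named in the text that were called, 74 and 78 lost the call without sample 1 or 2 of 18.5 dpc and another 13 were not tested in each, against 78 and 80 lost with the probe sets kept. The call was lost for 42 and 40 without sample 1 or 2 of 11.5 dpc, 32 in the fit of the end ages and up to 26 under other settings that kept all samples, where the filter on the mean left 22 and probe sets of standard design 21 of the 247 untested. Calls lost with the sign kept in the most of the 25 other settings were those of Gadd45b (17), Pcgf2 and Taf4b (16), and Fshr, Hsd3b1 and Six5 (15). Acvr1b, Dmc1, Gdf9 and Xist lost theirs in 14, Ccl6 in 13, and Crabp1, Trim71, Tubb3 and Upk1b in 12. With probe sets of standard design only, Skp2 changed by -0.88, Stil by -1.20, Aurkb by -0.88, Urod by -0.04, Aldh1a2 by -0.05, Hoxb4 by -0.82, Gadd45b by 1.06 and H2-K1 by 0.45 on the log2 scale, none called. The sign turned with that choice for Igf1r (0.37), Slc4a1 (0.024) and Sox9 (0.76). It turned with the mean of a gene's probe sets on the array that holds most of them for Acvr1b (0.24), Fzd7 (0.50), Gata4 (0.29), Igf1r (0.20), Meg3 (-0.14), Msmo1 (0.85), Rara (0.12), Slc4a1 (0.024) and Smad5 (0.65), none of them called in that setting. These genes have probe sets that disagree, and which reads the transcript better was not tested.

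Among genes not called, the sign also turned when a sample was left out. The range over left-out samples is -0.64 to 0.39 for Csf1r, -0.21 to 0.042 for Slc4a1, -0.75 to 0.032 for Mrs2, -0.58 to 1.44 for Porcn, -0.16 to 0.031 for Rab27b, -0.49 to 0.13 for 1700129C05Rik and -0.62 to 0.69 for 4933424G06Rik. With the probe sets kept, Porcn was at -0.30 without sample 1 of 11.5 dpc and 4933424G06Rik at -0.23 without sample 2, and the other turned signs had the values at the ends of these ranges or 0.20 for Csf1r.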

Other observations

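Of the 192 genes that rose and first passed the midpoint at 18.5 dpc, some had almost no earlier signal. Jag2 and Ccno, with Lhx8, Nobox and Ybx2, had means under 50 at each of the 4 ages from 11.5 to 16.5 dpc. Their means at 18.5 dpc were 164 ± 7.14, 428 ± 0.990, 634 ± 63.9, 599 ± 2.90 and 238 ± 0.707 (SD, n = 2). These genes were picked after their values were seen.

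Stra8 was the reverse. At 14.5 dpc its signals were 699 and 496. They were 2.20 and 3.20 in the samples of 11.5 dpc, 8.60 and 2.70 in those of 12.5 dpc, 62.4 and 83.1 in those of 16.5 dpc and 23 and 9.70 in those of 18.5 dpc. The end ages alone called this gene only with 4 in place of 16 added, among the settings tried, and it was also picked after its values were seen.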
